A study of Mus musculus with 8 samples.

Results

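The 10 genes described here encode BCL2 family proteins, which decide whether a cell survives or dies through its mitochondria. They were picked by name from the deposited expression table, in which each name had a single row. They are the pro-survival genes Bcl2, Bcl2l1 and Mcl1, the effector genes Bax and Bak1, and the BH3-only genes Bcl2l11, Bbc3, Pmaip1, Bad and Bid. They make up 10 of the 47069 gene IDs in the table, and all 10 passed the filter on low values that left 12879 genes to be tested. Their level with OVA-T4 alone was set against that with OVA-T4 + TGFβ.

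OT-I T cells are mouse CD8+ T cells with a transgenic receptor that recognises a peptide of ovalbumin, and OVA-T4 (SIITFEKL) is a variant of it that binds this receptor with low affinity. A first group of 4 libraries came from cells given 10 nM OVA-T4 for 24 h, and the other group of 4 from cells given the same peptide together with 5 ng/ml recombinant TGFβ. All cells of both groups had therefore received antigen, and no unstimulated library was analysed here. The cells were taken from lymph nodes of mice aged 7 to 12 weeks and labelled WT, at 5000000 cells per sample. The study worked with OT-I mice and with OT-I Rag1-/- mice, and neither its methods nor the labels say which of them gave these samples or name a sort before stimulation. The labels call the libraries biological replicates.

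BCL2 family proteins share short BCL2 homology (BH) segments. The effectors BAX and BAK open the outer mitochondrial membrane, which releases cytochrome c and starts the caspase cascade. The pro-survival proteins BCL-2, BCL-xL (from Bcl2l1) and MCL-1 hold them in check, and BH3-only proteins, which carry the BH3 segment alone, bind the pro-survival proteins or activate the effectors. In T cells, BIM (from Bcl2l11) is known for the death of activated cells when a response ends, and BCL-2 and MCL-1 for the survival of naive and memory cells.

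Members of both kinds carry a BH3 segment, which takes part in their binding to one another, so its coding sequence is shown for 9 members. A search of the longest coding sequence of each gene (GENCODE M21, GRCm38) for a leucine, 3 further residues, then glycine, alanine or serine, then aspartate gave exactly 1 match in each of the 9. The capitals mark the codons of the leucine, of the small residue and of the aspartate, and each stretch of 27 bases lies within 1 coding exon.
Bcl2, chr1:106712578-106712604, minus strand, exon 1 of 2: accCTCcgccgggctGGGGATgacttc
Bcl2l1, chr2:152829700-152829726, minus strand, exon 2 of 3: gcgCTGagagaggcaGGCGATgagttt
Mcl1, chr3:95659433-95659459, plus strand, exon 1 of 3: accCTGcggcgcgtgGGCGACggcgtg
Bax, chr7:45466000-45466026, minus strand, exon 3 of 6: tgtCTCcggcgaattGGAGATgaactg
Bak1, chr17:27022534-27022560, minus strand, exon 4 of 6: cagCTTgctctcatcGGAGATgatatt
Bcl2l11, chr2:128147147-128147173, plus strand, exon 3 of 4: gagCTGcggcggatcGGAGACgagttc
Bbc3, chr7:16313770-16313796, plus strand, exon 3 of 4: cagCTGcggcggatgGCGGACgacctc
Bad, chr19:6950789-6950815, plus strand, exon 3 of 4: gagCTCcgaaggatgAGCGATgagttt
Bid, chr6:120897292-120897318, minus strand, exon 4 of 6: catCTCgcccaaataGGCGATgagatg
The small residue was glycine in 7 members, alanine in Bbc3 and serine in Bad. Any pair of these stretches had 11 to 21 of 27 bases in common, and the closest pair was Bcl2l11 and Bbc3, with 21. These closest stretches belong to a gene that fell with TGFβ and a gene that rose, as described below.

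With TGFβ, Mcl1 and Bcl2 were higher, both effector genes were lower, and the BH3-only genes split. Bcl2l11 and Bid fell, whereas Pmaip1, Bbc3 and Bad rose. Of the 10 genes, 5 were higher, 4 were lower and Bcl2l1 did not pass the test (limma, Benjamini-Hochberg adjusted p under 0.05 over all 12879 genes). Among all genes tested, 51.0% passed, 30.7% as higher and 20.2% as lower. For 8 of the 10 genes the 4 libraries of one group did not overlap those of the other, against 48.1% of all genes tested. Of these, 4 were higher and 4 lower, where 29.1% and 18.9% of all genes were. The 10 genes all passed with the replicate number as a block, as did 60.8% of all genes, and 9 passed after median of ratios scaling, as did 51.2%. The median absolute log2 fold change was 0.50 in the 10 genes and 0.29 in all genes, and 3 of the 10 passed the test with over 1.5-fold, against 19.7% of all genes. Same-numbered libraries of the groups differed in 1 direction for all 10 genes, in 4 of 4 pairs each, as they did for 68.6% of all genes tested. RNA of a whole culture was measured, so fewer cells of a kind and less RNA per cell cannot be told apart in any of these values.

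**Figure D1:**
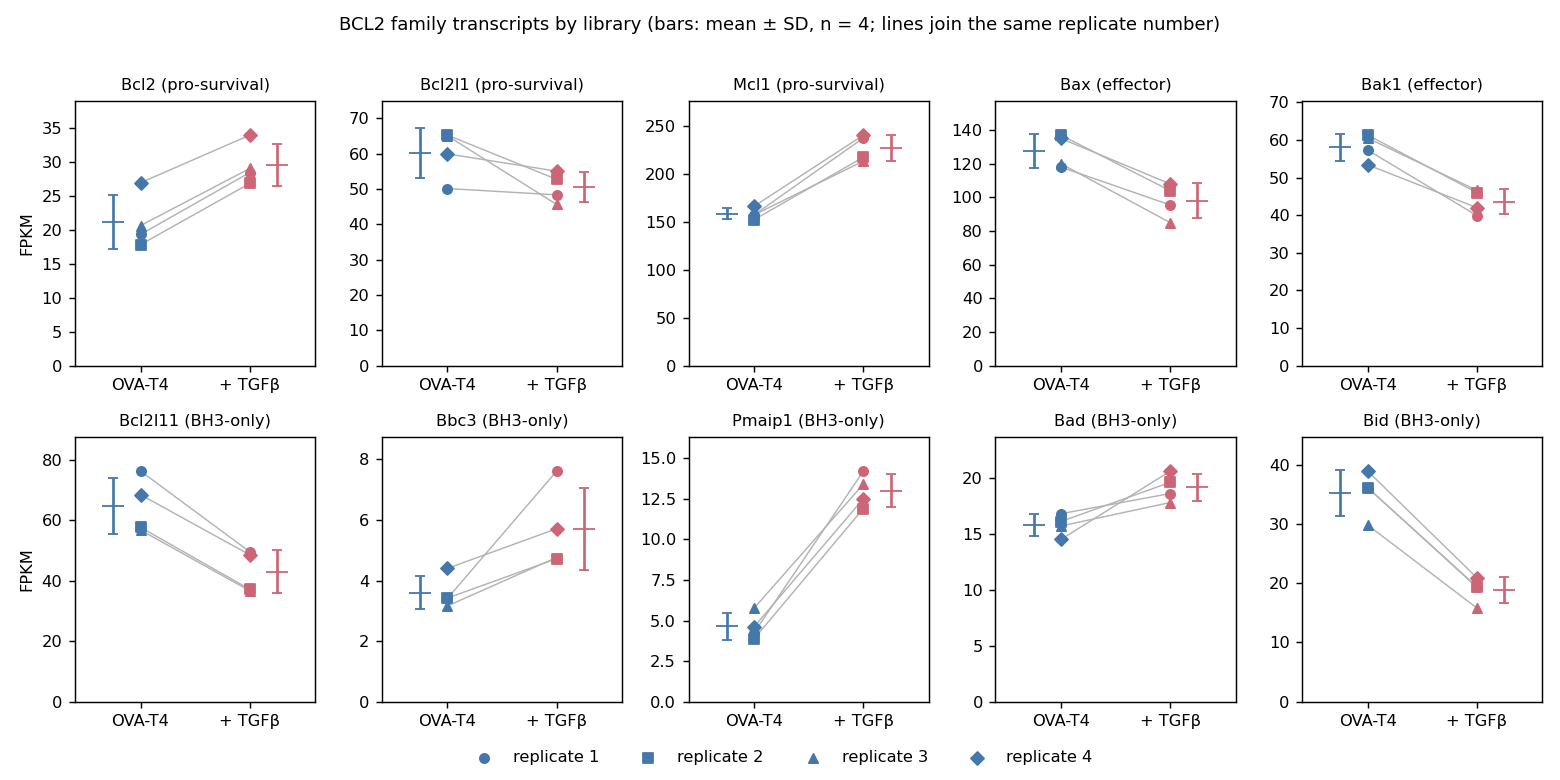
FPKM (vertical axis of each panel, starting at 0) of the 10 genes in the 4 libraries with OVA-T4 (blue) and the 4 with OVA-T4 + TGFβ (red). Marker shapes are replicate numbers, grey lines join the same number, and bars are mean ± SD (n = 4). Mcl1, Pmaip1, Bbc3 and Bad lie wholly higher with TGFβ and Bax, Bak1, Bcl2l11 and Bid wholly lower, while the groups of Bcl2 and Bcl2l1 overlap.

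Values are FPKM, fragments per kilobase of gene scaled to the mapped total of the library. Library totals worked out from FPKM and GENCODE M21 exon lengths were 35586261 to 41597929, and whole reads were then solved from both. The 10 genes had from 130 reads (Bbc3) to 20280 reads (Mcl1) per library. For a single gene this is a lower limit, since the solved gene length is the smallest that gives whole reads. Summed over all genes, the solved reads held 99.92% to 99.94% of the totals. Fold changes are on log2(FPKM + 0.5), which understates the change of low genes such as Bbc3. Over all genes the median log2 fold change was 0.08, and it lay 0.094 lower after median of ratios scaling and 0.110 lower after quantile normalization. T cell markers summed to 1893 to 2189 FPKM with OVA-T4 and 2246 to 2465 FPKM with TGFβ (4 of 6 higher, of which Cd3e and Cd8a also after median of ratios scaling and Cd3d and Cd3g not), and Cd4 reached at most 1.43 FPKM. Markers of other lymph node cells were present at low levels. B cell markers summed to 15.5 to 22.0 FPKM with OVA-T4 and 31.0 to 36.1 FPKM with TGFβ (3 of 6 higher, Ms4a1 at 0 in all 8 libraries). Dendritic cell markers summed to 12.2 to 26.7 and 27.9 to 45.5 FPKM (4 of 8 higher), and macrophage markers to 18.0 to 32.9 and 23.6 to 75.1 FPKM (2 of 8 higher). NK cell markers stayed at or below 0.343 FPKM, and stromal markers summed to 25.2 to 34.4 and 22.4 to 31.3 FPKM (1 of 4 higher). The part of such cells in the values below was not tested.

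Mcl1, which encodes a short-lived pro-survival protein (chromosome 3, 95658788 to 95663176, plus strand, GRCm38), had the highest level of the 10 genes in both groups. Its FPKM was 157, 152, 157 and 166 in OVA-T4 replicates 1 to 4, and 237, 217, 213 and 240 with TGFβ. Every library with TGFβ thus exceeded every library without it. The mean went from 158 ± 5.75 to 227 ± 13.6 FPKM (SD, n = 4 each), a log2 fold change of 0.52 (standard error 0.05, limma adjusted p = 5.78e-05). Bcl2, the founding pro-survival gene (chromosome 1, 106538178 to 106714274, minus strand), measured 19.3, 17.8, 20.6 and 26.9 FPKM with OVA-T4 and 28.4, 26.8, 29.0 and 33.9 FPKM with TGFβ. The groups just overlapped, since OVA-T4 replicate 4 stood above its group and slightly above the lowest TGFβ library. Within each replicate number Bcl2 was higher with TGFβ, and the log2 fold change was 0.48 (standard error 0.12, adjusted p = 0.0101). Replicate 4 was the highest and replicate 2 the lowest in both groups, and the order of the 4 numbers was the same.

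Bcl2l1 (chromosome 2, 152780668 to 152831728, minus strand) gives BCL-xL and, by another splice site, the pro-death form BCL-xS, which a gene-level value does not separate. It measured 50.1, 65.2, 65.0 and 59.9 FPKM with OVA-T4 and 48.3, 52.7, 45.6 and 55.0 FPKM with TGFβ. OVA-T4 replicate 1 lay among the TGFβ libraries, whereas the other 3 OVA-T4 libraries lay above all of them. The log2 fold change was -0.25, with a 95% interval of -0.46 to -0.03 before adjustment, and the adjusted p was 0.0540. It passed as lower once replicate number entered as a block (adjusted p = 0.0238), after median of ratios scaling (-0.35, adjusted p = 0.0216) and with limma voom on the solved reads (-0.34, adjusted p = 0.0179). Without OVA-T4 replicate 1 it passed at -0.33 (adjusted p = 0.00783) and without TGFβ replicate 4 at -0.29 (adjusted p = 0.0420), and over all single libraries left out the adjusted p ran from 0.00783 to 0.137. Its value thus stood near the threshold, on the other side of 0 from Bcl2 and Mcl1.

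Both effector genes were lower with TGFβ. Bax (chromosome 7, 45461697 to 45466898, minus strand) measured 118, 137, 120 and 135 FPKM with OVA-T4 and 95.5, 104, 85.0 and 108 FPKM with TGFβ. The lowest OVA-T4 library was above the highest TGFβ library, and the log2 fold change was -0.38 (standard error 0.08, adjusted p = 0.00467). Bak1 (chromosome 17, 27019810 to 27029009, minus strand), whose protein is held at the mitochondrion by BCL-xL and MCL-1, measured 57.3, 61.3, 60.5 and 53.4 FPKM with OVA-T4. With TGFβ it measured 39.9, 46.0, 46.6 and 42.0 FPKM, again with no overlap, and its log2 fold change was -0.41 (standard error 0.07, adjusted p = 9.49e-04). The 95% intervals were -0.57 to -0.19 for Bax and -0.56 to -0.26 for Bak1, and the difference between these genes was not tested. Of the exon bases of Bak1, 25.5% are shared with Ggnbp1 on the other strand, and of Bax, 12.2% with Gm45808 on the same strand. Whether the counting used strand is not given in the sources used here.

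Among the BH3-only genes, Bid and Bcl2l11 were lower with TGFβ. BID is a cytosolic protein that caspase 8 cuts into an active form, which links death receptors to the mitochondrion. Bid (chromosome 6, 120891930 to 120916853, minus strand) measured 36.1, 36.1, 29.8 and 38.9 FPKM with OVA-T4 and 19.4, 19.3, 15.8 and 20.9 FPKM with TGFβ. Its lowest OVA-T4 library was well above its highest TGFβ library. The log2 fold change of -0.89 (standard error 0.10, adjusted p = 1.32e-04), 1.85-fold, was the steepest fall among the 10 genes. Replicate 4 was the highest and replicate 3 the lowest in both groups, and within the 4 numbers the log2 ratio was -0.88, -0.89, -0.90 and -0.88. Bid shares 17.7% of its exon bases with the family gene Bcl2l13 on the opposite strand, whose own log2 fold change was -0.03.

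BIM binds all of the pro-survival proteins and can activate BAX and BAK. Bcl2l11, its gene (chromosome 2, 128126038 to 128162547, plus strand), measured 76.3, 57.7, 56.8 and 68.5 FPKM with OVA-T4 and 49.6, 37.2, 36.7 and 48.6 FPKM with TGFβ. The groups did not overlap, although replicates 1 and 4 were well above replicates 2 and 3 in both, in the same order of the 4 numbers. The log2 fold change was -0.59 (standard error 0.13, adjusted p = 0.00487). With the replicate number as a block, which takes out the shared order, the adjusted p was 2.39e-05. Macrophage markers were also highest in replicates 1 and 4 of both groups, at 32.9 and 32.2 against 24.1 and 18.0 FPKM with OVA-T4 and 75.1 and 61.3 against 37.0 and 23.6 FPKM with TGFβ. The summed T cell, B cell, dendritic cell and stromal markers were likewise highest in replicates 1 and 4 of both groups. Macrophage and stromal sums overlapped between the groups, while T cell, B cell and dendritic cell sums were higher with TGFβ without overlap. The part of any of these cells in the values of Bcl2l11 was not tested. The splice forms of BIM cannot be parted in these values.

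Pmaip1, Bbc3 and Bad were higher with TGFβ. NOXA, the product of Pmaip1, binds MCL-1 in particular and promotes its breakdown. Pmaip1 measured 4.26, 3.88, 5.77 and 4.62 FPKM with OVA-T4 and 14.2, 11.9, 13.4 and 12.5 FPKM with TGFβ. Every TGFβ library was far above every OVA-T4 library. Its log2 fold change of 1.41 (standard error 0.12, adjusted p = 1.71e-05), 2.65-fold, was the largest change among the 10 genes. PUMA, from the p53 target gene Bbc3, binds all of the pro-survival proteins. Bbc3 (chromosome 7, 16308393 to 16318205, plus strand) was the lowest of the 10, at 3.41, 3.42, 3.16 and 4.40 FPKM with OVA-T4 and 7.61, 4.72, 4.76 and 5.71 FPKM with TGFβ. The groups lay close together without overlap, and TGFβ replicate 1 stood apart above the other 3. The log2 fold change was 0.58 (standard error 0.16, adjusted p = 0.0128), and it did not pass after quantile normalization (0.35, adjusted p = 0.0715).

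BAD binds BCL-2 and BCL-xL and is kept inactive by phosphorylation in cells that receive growth factor or cytokine signals. Bad (chromosome 19, 6941861 to 6951899, plus strand) measured 16.8, 16.1, 15.7 and 14.5 FPKM with OVA-T4 and 18.6, 19.6, 17.8 and 20.6 FPKM with TGFβ. These groups were narrow and did not overlap. Its log2 fold change of 0.27 (standard error 0.07, adjusted p = 0.00869) was the smallest that passed. It did not pass after median of ratios scaling (0.17, adjusted p = 0.0728), after quantile normalization (0.16, adjusted p = 0.0873) or with voom on the solved reads (0.19, adjusted p = 0.0901). Bad also shares 20.5% of its exon bases with Gpr137 on the opposite strand.

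**Figure D2:**
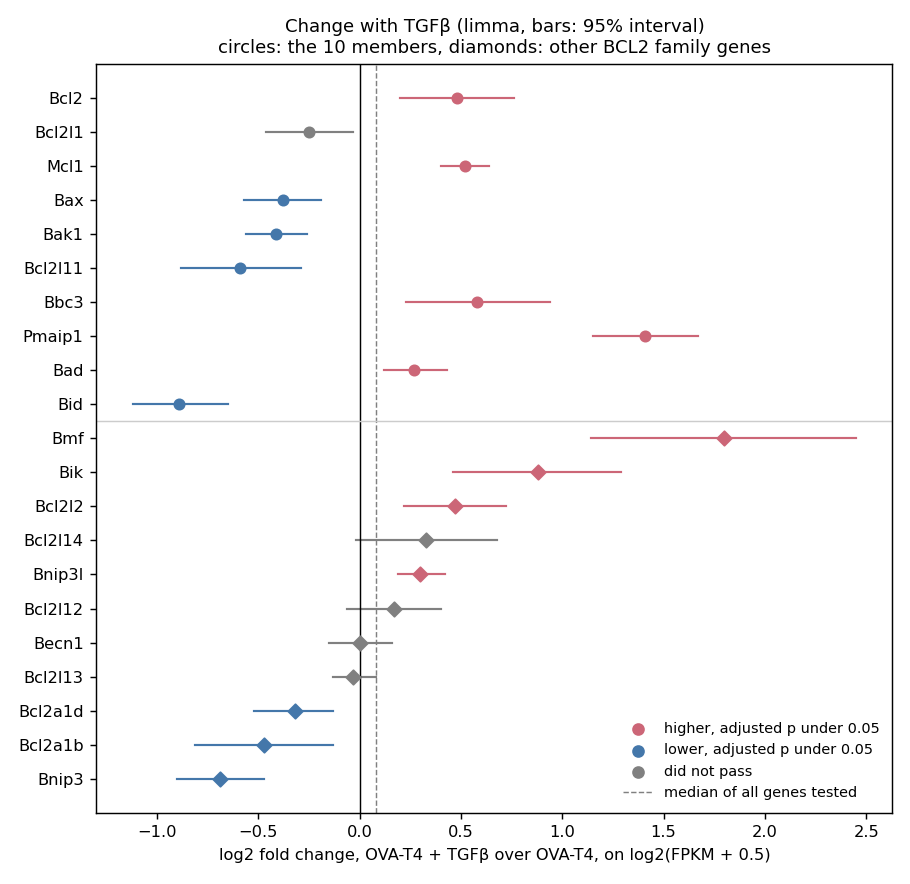
Log2 fold change of OVA-T4 + TGFβ over OVA-T4 (horizontal axis, on log2(FPKM + 0.5)) with limma's 95% interval, for the 10 genes (circles) and the 11 other BCL2 family genes tested (diamonds). Red marks genes that were higher at an adjusted p under 0.05, blue those that were lower, grey those that did not pass, and the dashed line the median of all genes tested (0.08). Pmaip1 at 1.41 and Bmf at 1.80 lie furthest to the right, and Bid at -0.89 furthest to the left.

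Levels between genes were compared in FPKM, which is per length, though the length by which the authors divided is not stated and the order below depends on it. With OVA-T4 alone the mean FPKM fell from Mcl1 through Bax, Bcl2l11, Bcl2l1, Bak1, Bid, Bcl2, Bad and Pmaip1 to Bbc3. Bcl2l11 and Bcl2l1, Bcl2l1 and Bak1, and Pmaip1 and Bbc3 were neighbours whose libraries overlapped, so their order was not larger than the spread. With TGFβ the order was Mcl1, Bax, Bcl2l1, Bak1, Bcl2l11, Bcl2, Bad, Bid, Pmaip1 and Bbc3, and Bcl2l1 and Bak1, Bak1 and Bcl2l11, and Bad and Bid overlapped. Bcl2l11 went from place 3 to 5 and Bid from 6 to 8. With solved reads divided by all GENCODE M21 exon bases of a gene, the places differed. There Bcl2l11 went from 5 to 7 and Bid from 6 to 9, while Pmaip1 went from 9 to 6 and Bcl2 from 7 to 5.

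Summed by role, the FPKM of the 3 pro-survival genes went from 239 ± 11.3 to 307 ± 18.2 (SD, n = 4 each) and that of the 2 effector genes from 185 ± 9.94 to 142 ± 9.54. That of the 5 BH3-only genes went from 124 ± 11.9 to 99.7 ± 10.7. In these 3 sums the groups did not overlap, as was so for 48.1% of single genes tested. The sums hold only the 10 members, so the BH3-only fall is that of these 5 genes. Bmf (6.34 ± 2.71 to 22.5 ± 5.91 FPKM) and Bik (1.09 ± 0.430 to 2.34 ± 0.178 FPKM), BH3-only genes outside the 10, were both higher with TGFβ. Of the pro-survival genes outside the 10 that passed the test, Bcl2l2 was higher and Bcl2a1b and Bcl2a1d were lower. No sum that includes these genes was made. Mcl1 and Bax carry most of the pro-survival and effector sums. Bcl2l11 had a mean share of 52.1% of the BH3-only sum with OVA-T4 and 43.0% with TGFβ. The weight of each gene in the sums depends on the authors' gene lengths, and no test was made of the sums.

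Ratios of a pro-survival gene to the BH3-only or effector gene whose protein it binds were taken within each library, where library scaling cancels. Of the 6 ratios, 4 did not overlap between the groups. Bcl2 to Bcl2l11 was 0.253, 0.309, 0.363 and 0.393 with OVA-T4 and 0.573, 0.720, 0.789 and 0.697 with TGFβ, so that every TGFβ library held more Bcl2 per Bcl2l11, by 1.09 on the log2 scale (2.13-fold). Mcl1 to Bcl2l11 was 2.06, 2.64, 2.77 and 2.43 with OVA-T4 and 4.78, 5.82, 5.82 and 4.94 with TGFβ, higher by 1.11 on the log2 scale. Bcl2 to Bax was 0.164, 0.130, 0.171 and 0.199 with OVA-T4 and 0.297, 0.258, 0.341 and 0.314 with TGFβ, higher by 0.87. Mcl1 to Pmaip1 moved the other way, from 36.8, 39.3, 27.3 and 36.0 to 16.6, 18.2, 15.9 and 19.2, a log2 difference of -0.99. Each of these 4 ratios had an exact permutation p of 0.0286 (two-sided, 0.0429 adjusted over the 6 ratios), the smallest that 4 against 4 libraries allow. For Mcl1 to Bcl2l11 this p was fixed beforehand, since Mcl1 was higher and Bcl2l11 lower in every TGFβ library. The ratios of Bcl2 were close to fixed, as Bcl2 overlapped only at 26.9 against 26.8 FPKM. The ratios share genes and restate the changes of single genes, so their p-values are not separate evidence.

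The 2 ratios of Bcl2l1 overlapped between the groups. Bcl2l1 to Bcl2l11 was 0.656, 1.13, 1.14 and 0.875 with OVA-T4 and 0.973, 1.42, 1.24 and 1.13 with TGFβ, a log2 difference of 0.35 (exact permutation p = 0.171, adjusted 0.200). Bcl2l1 to Bax was 0.426, 0.477, 0.541 and 0.443 with OVA-T4 and 0.505, 0.507, 0.537 and 0.510 with TGFβ, a difference of 0.13 (exact permutation p = 0.200, adjusted 0.200). Bcl2l1 and Bax were each below their OVA-T4 level in all 4 replicate numbers. All values concern RNA, and no protein level was analysed here.

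**Figure D3:**
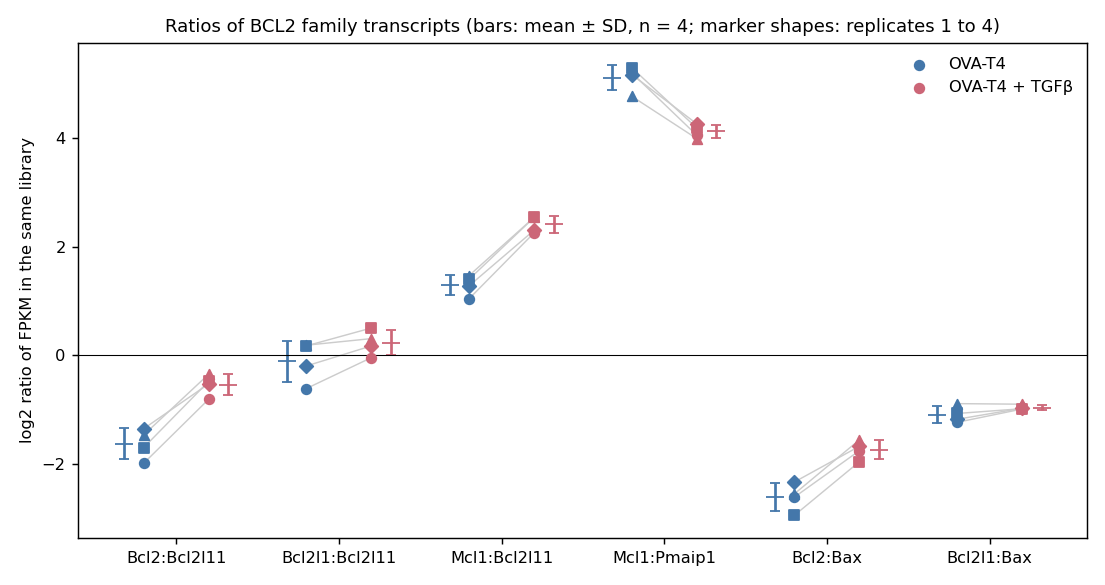
Log2 ratio of the FPKM of a pair of BCL2 family genes in the same library (vertical axis) for the 6 ratios, with OVA-T4 in blue and OVA-T4 + TGFβ in red. Marker shapes are replicates 1 to 4, grey lines join the same number, and bars are mean ± SD (n = 4). The ratios of Bcl2 to Bcl2l11, Mcl1 to Bcl2l11 and Bcl2 to Bax lie higher with TGFβ and Mcl1 to Pmaip1 lies lower, while both ratios of Bcl2l1 overlap.

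Promoter windows from RefSeq (GRCm38.p6, 250 bases before to 50 after a start) were read for 9 of the 10 genes, in 15 windows, and searched on both strands for 3 motifs. CACGTG, the E-box that MYC and other factors bind, was in 2 of the 15 windows (of Bax and Bbc3), against 7.15% of all 32851 windows. GTAAACA, a forkhead motif, was in 2 of the 15 (of Bcl2l11 and Bbc3), against 3.65% of all windows. CAGAC, the SMAD box, was in 6 of the 15, which belong to 5 genes, against 49.6% of all windows. The windows with the rarer motifs in capitals are shown for Bax and Bcl2l11, which fell, and for Bbc3, which rose; in Bbc3 capitals also mark CAGAC on the other strand.
Bax, chr7:45466849-45467148, minus strand: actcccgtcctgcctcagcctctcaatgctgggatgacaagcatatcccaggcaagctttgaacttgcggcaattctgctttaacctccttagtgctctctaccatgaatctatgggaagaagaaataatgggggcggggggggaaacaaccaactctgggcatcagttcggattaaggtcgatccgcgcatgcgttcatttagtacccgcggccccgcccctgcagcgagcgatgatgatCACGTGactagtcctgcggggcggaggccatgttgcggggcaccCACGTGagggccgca
Bcl2l11, chr2:128125788-128126087, plus strand: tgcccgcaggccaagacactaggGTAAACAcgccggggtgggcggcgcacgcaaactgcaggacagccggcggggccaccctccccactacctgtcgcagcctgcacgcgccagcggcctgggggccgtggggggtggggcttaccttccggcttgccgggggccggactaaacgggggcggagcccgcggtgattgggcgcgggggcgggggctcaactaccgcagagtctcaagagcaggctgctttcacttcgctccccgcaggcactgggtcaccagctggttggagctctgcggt
Bbc3, chr7:16310011-16310310, plus strand: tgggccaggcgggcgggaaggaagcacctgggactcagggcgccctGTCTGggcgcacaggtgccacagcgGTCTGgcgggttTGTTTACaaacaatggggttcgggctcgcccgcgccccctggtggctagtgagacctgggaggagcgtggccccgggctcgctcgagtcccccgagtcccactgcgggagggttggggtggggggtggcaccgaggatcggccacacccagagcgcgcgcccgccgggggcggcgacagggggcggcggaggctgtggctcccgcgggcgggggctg
The Bax window held CACGTG at 2 places, the Bcl2l11 window GTAAACA at 1 place on the strand shown, and the Bbc3 window GTAAACA at 1 place and CAGAC at 2 places, which read on the strand not shown. CACGTG in Bbc3 lay in another of its windows. Each of the rarer motifs thus occurred beside a gene that fell and beside a gene that rose. A match describes the letters and is not a measured binding site.

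Beyond the 10 genes, 17 other BCL2 family genes were listed, of which 11 passed the filter and 7 passed the test, 4 as higher and 3 as lower. The 7 were 63.6% of those tested, against 51.0% of all genes tested. Bmf, whose BH3-only protein is held on the cytoskeleton until released, changed most. It measured 7.85, 3.98, 4.13 and 9.39 FPKM with OVA-T4 and 27.1, 15.4, 20.0 and 27.6 FPKM with TGFβ. All TGFβ libraries were above all OVA-T4 libraries, and replicates 4 and 1 were the highest in both groups, as for Bcl2l11. The log2 fold change was 1.80 (standard error 0.29, adjusted p = 8.33e-04, and 9.75e-06 with the replicate number as a block). Bik, another BH3-only gene, went from 1.09 ± 0.430 to 2.34 ± 0.178 FPKM, a log2 fold change of 0.88. Bcl2l2, which encodes the pro-survival BCL-w, went from 5.32 ± 0.775 to 7.52 ± 0.622 FPKM (0.47). Of the hypoxia-linked mitophagy receptors, Bnip3 was lower (13.6 ± 1.19 to 8.25 ± 0.892 FPKM, -0.69) and Bnip3l higher (48.5 ± 2.32 to 60.0 ± 2.25 FPKM, 0.30).

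Bcl2a1d and Bcl2a1b, copies of the pro-survival gene A1, were lower, at log2 fold changes of -0.32 (adjusted p = 0.0114) and -0.47 (adjusted p = 0.0267). The A1 copies are nearly identical in sequence, so how reads were split among them is uncertain, and Bcl2a1b no longer passed without OVA-T4 replicate 1 (adjusted p = 0.0693), OVA-T4 replicate 4 (0.0563), TGFβ replicate 1 (0.0585) or TGFβ replicate 3 (0.0673), or without the filter on low values (0.0630). Becn1 (0.00), Bcl2l13 (-0.03), Bcl2l12 (0.17) and Bcl2l14 (0.33) did not pass, and Bcl2l12 passed without TGFβ replicate 2 (0.26, adjusted p = 0.0346). Bcl2a1a, Bok, Bcl2l15, Hrk and Bcl2l10 were below the filter, and Bcl2a1c was at 0 in all libraries. Of the BH3-only genes in both lists that were tested, Bmf, Pmaip1, Bik, Bbc3 and Bad were higher and Bcl2l11 and Bid lower.

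Lists of genes around the family moved both ways as well. Their counts stand beside 51.0% of all genes tested that passed, 30.7% as higher and 20.2% as lower. After median of ratios scaling 51.2% of all genes passed, and 47.5% of those called were higher. Of 17 genes of the mitochondrial death machinery, all tested, 7 were higher, 6 lower and 4 did not pass. Their median log2 fold change was 0.01 against 0.08 for all genes. After median of ratios scaling 5 were higher and 6 lower. Cycs, which encodes cytochrome c, went from 118 ± 6.69 to 67.6 ± 6.46 FPKM (-0.80, adjusted p = 3.00e-05). The nuclease gene Endog was also lower (-0.80). Casp6 was the most raised of this list, at 0.60. Casp9, the caspase of the apoptosome, was higher (0.39), as were the inhibitors of apoptosis Xiap (0.43) and Birc2 (0.52).

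Of 12 death receptor genes, 5 were higher, 2 lower and 5 did not pass (median 0.14). This balance depended on the scaling, with 3 higher and 3 lower after median of ratios. Fas rose from 14.9 ± 1.83 to 31.3 ± 1.38 FPKM (1.05, adjusted p = 1.77e-05), while its ligand gene Fasl fell from 3.78 ± 0.560 to 0.793 ± 0.310 FPKM (-1.75, adjusted p = 1.10e-04). Tnfsf10, the gene of the death ligand TRAIL, rose from 6.88 ± 0.378 to 18.5 ± 0.289 FPKM (1.37, adjusted p = 6.22e-07). Cflar, the inhibitor of caspase 8 activation, was also higher (0.94).

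Genes known to act on the 10 members, 16 of 17 of them tested, had 4 higher, 6 lower and 6 that did not pass (median 0.00). Myc, which in other cells is known to favour death and to act on several BCL2 family genes, fell from 132 ± 25.6 to 48.3 ± 11.8 FPKM (-1.46, adjusted p = 2.24e-04). Pim2, a survival kinase that phosphorylates BAD, fell from 261 ± 36.3 to 131 ± 31.7 FPKM (-1.01). Foxo1, a forkhead factor whose family is known to drive Bcl2l11 and Bbc3, rose from 11.5 ± 1.01 to 20.9 ± 0.750 FPKM (0.84). Dynll1 and Dynll2, the dynein light chains that bind BIM and BMF, were lower (-0.31 and -0.44).

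Other p53 target genes, of which 11 of 12 were tested, had 4 higher, 2 lower and 5 that did not pass (median 0.25). Here too the balance depended on the scaling, with 3 higher and 3 lower after median of ratios. Trp53inp1 rose from 29.8 ± 5.43 to 92.4 ± 6.47 FPKM (1.63) and Zmat3 to a smaller extent (0.53), while Phlda3 was lower (-0.59). All 6 cytokine receptor genes linked to T cell survival passed, 3 as higher and 3 as lower (median -0.11), but only 1 of the 3 was still higher after median of ratios scaling or with voom. Il2rb (0.27) had adjusted p-values of 0.0811 and 0.0526 there and Il2rg (0.28) of 0.119 and 0.106, and Il2rg also failed with 6 of the 8 libraries left out in turn (adjusted p up to 0.119), all but OVA-T4 replicate 4 and TGFβ replicate 3. Il7r, the receptor chain for interleukin 7, which sustains BCL-2 in naive T cells, went from 2.65 ± 0.735 to 5.77 ± 1.30 FPKM (1.00). Il15ra (-0.87) and Il4ra (-0.58) were lower.

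**Figure D4:**
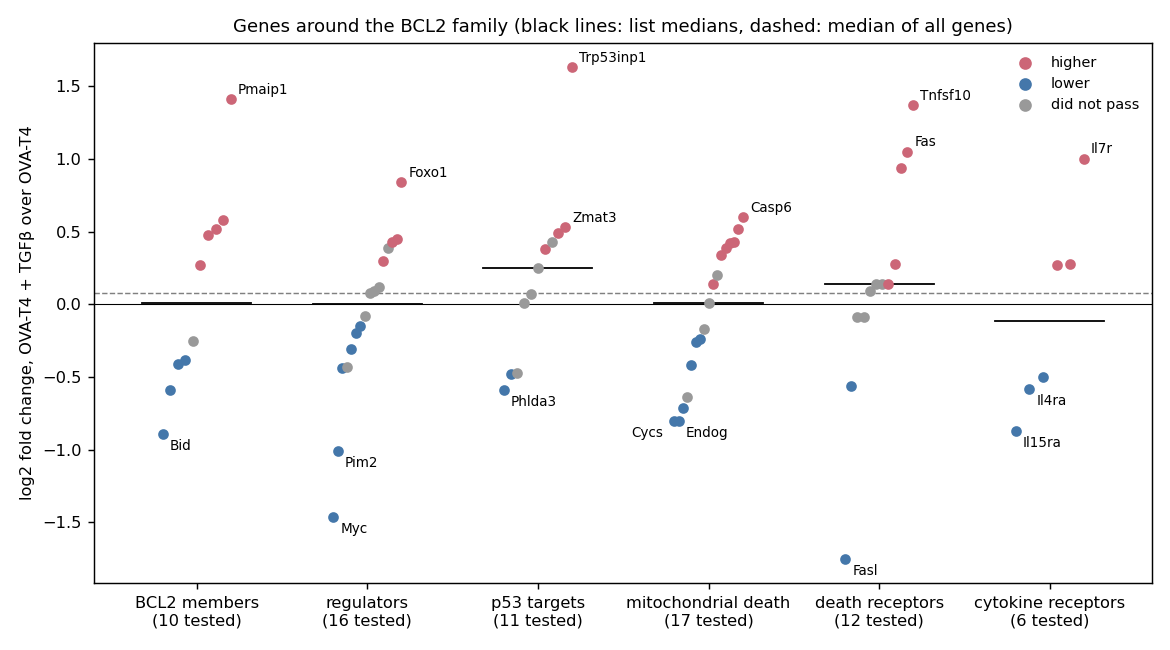
Log2 fold change of OVA-T4 + TGFβ over OVA-T4 (vertical axis) for each tested gene of the 10 BCL2 family members and of the 5 lists around them, with 1 point a gene. Red points were higher and blue points lower at a limma adjusted p under 0.05, grey points did not pass, black lines are list medians and the dashed line is the median of all genes tested. Every list holds genes on both sides of 0, from Fasl at -1.75 to Trp53inp1 at 1.63.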

How the data were processed

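The authors deposited 1 table of FPKM values, made from reads with tools that the submitters' processing notes name as CASAVA, HISAT2 and HTSeq on the mouse build mm10, without versions. The labels name an RNeasy kit and the study's methods TRI Reagent with a Direct-zol kit. The authors tested read counts with DESeq2, whereas the deposited FPKM were tested here on the log2 scale. FPKM is already divided by gene length and library total. Whole reads were solved from the FPKM for all 23842 genes above 0, to within 0.005 reads or 9e-08 of the reads, and they held 99.92% to 99.94% of the totals.

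Genes whose mean reached 0.5 FPKM were compared on log2(FPKM + 0.5) by limma 3.58.1 in R 4.3.3, with the variance trend, two-sided, with Benjamini-Hochberg adjustment over all genes. The test was first tested on simulated data. Ratios were compared by exact permutation of the 8 libraries. Other steps ran in Python 3.11.15 (pandas 2.3.3, numpy 2.4.6, matplotlib 3.10.9, SciPy 1.17.1).

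The members and lists were chosen with earlier results of these data known. Named are the 10 members, each other family gene that passed the filter, in each list the 3 largest changes that passed and the largest of opposite sign, and the marker genes, except for items not reported here. Casp9, Xiap, Birc2, Cflar, Dynll1, Dynll2, Il2rb and Il2rg, genes below the filter, and the sums by role were added after their values were seen. March5 was found by its gene ID, since its deposited name had become a date. Positions and exons come from GENCODE M21, which held 98.9% of the gene IDs.

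Deviations from the group mean correlated between same-numbered libraries (r of 0.179, 0.205, 0.419 and 0.505 in the order of the numbers, against -0.489 to 0.254 between other libraries). Every same-number r exceeded 0.1, but so did some r between other numbers, so these values do not settle whether the numbers are pairs. The labels do not state it either. The main test and the permutation of ratios left the number out, and the replicate block was an alternative. The alternatives were pseudocounts of 0.1 and 1, no filter or a minimum of 1 FPKM, median of ratios, TPM and quantile scaling, no variance trend, the replicate block, limma voom on the solved reads, and each library left out in turn. Nothing says whether the replicates came from separate mice, so p-values measure the spread between these samples.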

Additional observations from a re-analysis of the deposited data

Results flagged for a closer look

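In 86 groups of 4 libraries (named genes and ratios), 2 held a library set apart from the other 3 by most of the group's range, where chance flags about 1 in 20 groups. Bcl2l13 was at 29.7 FPKM in OVA-T4 + TGFβ replicate 3 and at 29.1 to 29.2 FPKM in the other TGFβ libraries. The log2 ratio of Bcl2l1 to Bax was -0.898 in OVA-T4 + TGFβ replicate 3 and -0.985 to -0.970 in the others.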

How the results depend on the processing

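Of 180 fits of the 10 genes under 18 alternatives, 171 kept both direction and side of the threshold, 4 lost a call, 5 gained one and 0 reversed. The lost calls were Bad in 3 scalings and Bbc3 in 1, and all 5 gained calls were Bcl2l1. After quantile normalization 3 of the 10 genes were higher, in place of 5. With the replicate block, 10 of the 10 genes passed, and 60.8% of all genes. Among all genes called, 60.3% were higher, and by scaling 47.5% (median of ratios), 46.8% (quantile), 65.1% (TPM) and 48.8% (voom). Ratios kept their direction with each library left out, with log2 differences of 0.97 to 1.18 for Bcl2 to Bcl2l11, 1.03 to 1.17 for Mcl1 to Bcl2l11, -1.10 to -0.92 for Mcl1 to Pmaip1 and 0.76 to 0.97 for Bcl2 to Bax. Their exact permutation p was then 0.0571, the smallest that 3 against 4 libraries allow. With the replicate block (4 same-numbered pairs) the differences of these ratios were 1.09, 1.11, -0.99 and 0.87, at an exact p of 0.125, the smallest that 4 pairs allow. The solved reads behind Bbc3, from 130 per library, were the fewest of the 10 genes. Such reads are a lower limit, so they do not settle its counting error. The levels rest on the authors' gene lengths, which are not stated.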
